A study of Mus musculus with 9 samples.

Results

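PPARγ binding was followed over the day at 4 genes of glyceroneogenesis, its pyruvate supply and glycerol handling in interscapular brown adipose tissue (iBAT), Pck1, Pdk4, Aqp7 and Gpd1. The PPARγ binding sites were taken as all peaks of the ChIP-sequencing count table whose midpoint lies in a fixed window of mm10 around each gene, which gave 31 of 66066 peaks, namely 9 at Pck1, 6 at Pdk4, 9 at Aqp7 and 7 at Gpd1. The iBAT came from male C57BL/6J mice of 10 weeks, an inbred laboratory strain, housed at 22 °C in a 12h:12h light:dark cycle, with no genetic or drug treatment in any group. Tissue was collected every 3 h at 8 time points from ZT0, the onset of the light phase, to ZT21. Per the labels, each time point is 1 pool of 8 mice, whereas the section on animals of the study gives 4 mice per time point. Each pool yielded 1 PPARγ library, so no time point is replicated, and the spread between mice, pools or preparations could not be estimated. An input library of ZT12 was not analysed here.

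PPARγ is the nuclear receptor that controls adipocyte differentiation and lipid storage, and it binds DNA as a heterodimer with the retinoid X receptor. In brown and white adipocytes, triglycerides are broken down and rebuilt continuously, and rebuilding requires glycerol 3-phosphate. Pck1 encodes the cytosolic phosphoenolpyruvate carboxykinase, the rate-limiting enzyme of glyceroneogenesis, the route from pyruvate to glycerol 3-phosphate. Pdk4 encodes a kinase that inactivates pyruvate dehydrogenase and thereby keeps pyruvate out of the citric acid cycle. Gpd1 encodes the cytosolic glycerol-3-phosphate dehydrogenase, which interconverts dihydroxyacetone phosphate and glycerol 3-phosphate. Aqp7 encodes the aquaglyceroporin through which glycerol leaves the adipocyte.

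The heterodimer recognizes DR1 elements, a pair of AGGTCA half-sites in the same orientation with 1 base between them. Both strands of all peaks were searched for DR1-like elements with at most 2 mismatches among the 12 bases of the half-sites. The 31 peaks held 29 such elements, located in 16 of the peaks, and 4 of the elements had a single mismatch. None matched all 12 bases. Of the 29 elements, 12 lay outside transcribed regions, 11 in introns and 6 in exons. The sequences below are those closest upstream of each start site, the other elements of the upstream Pdk4 peak and those with 1 mismatch, because the peaks that hold them are described below. The remaining elements are not shown, among them the 1 element in the leading Pdk4 peak, 5433 bases downstream of the start site. They are written 5′ to 3′ in the orientation of the element (GRCm38.p6, RefSeq), with capitals for the half-site bases that match AGGTCA.
Pck1, 444 bases upstream of the start site, peak 6, chr2:173152623-173152635, minus strand: cGGcCAaAGGTCA
Gpd1, 1010 bases upstream, peak 4, chr15:99716571-99716583, minus strand: AGGTCAaAGGcCA
Aqp7, 50 bases upstream, peak 7, chr4:41048180-41048192, plus strand: AGGTCAgAGGTgg
Pdk4, 11927 bases upstream, peak 5, chr6:5508199-5508211, plus strand: cGGTCAaAGGaCA
Pdk4, 13555 bases upstream, peak 5, chr6:5509827-5509839, plus strand: AGGTgAaAGGTtA
Pdk4, 13636 bases upstream, peak 5, chr6:5509908-5509920, plus strand: AGGTgAagGGTCA
Pck1, 21498 bases upstream, peak 2, chr2:173131569-173131581, plus strand: AGGcCAgAGGTCA
Pck1, 12248 bases upstream, peak 5, chr2:173140819-173140831, minus strand: AGGgCAaAGGTCA
Aqp7, 15880 bases downstream of the start site, peak 2, chr4:41032250-41032262, minus strand: AGGTCAgAGaTCA

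The element closest upstream of each start site is given with 40 bases on each side, since a neighbouring motif would fall in this stretch. The whole element is in capitals, as is the E-box CACGTG, the palindrome read by the core clock proteins, where one is present.
Pck1, chr2:173152583-173152675, minus strand: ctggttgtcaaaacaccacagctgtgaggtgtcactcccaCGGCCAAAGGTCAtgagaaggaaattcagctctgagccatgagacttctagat
Gpd1, chr15:99716531-99716623, minus strand: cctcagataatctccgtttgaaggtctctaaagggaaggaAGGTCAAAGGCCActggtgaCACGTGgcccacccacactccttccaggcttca
Aqp7, chr4:41048140-41048232, plus strand: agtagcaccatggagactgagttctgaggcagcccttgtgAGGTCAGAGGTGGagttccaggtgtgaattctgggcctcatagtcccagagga
Pdk4, chr6:5508159-5508251, plus strand: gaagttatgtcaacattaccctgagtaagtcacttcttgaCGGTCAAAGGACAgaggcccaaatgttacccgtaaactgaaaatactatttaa
The Gpd1 stretch holds an E-box 7 bases from the DR1-like element, and it was the only one of the 29 elements with CACGTG within 40 bases. Over the full peaks, an E-box was present in 13 of the 31 peaks and in 16.9% of all 66062 peaks with a sequence. The D-box TTATGTAA was present in 3 of the 31 and in 6.50% of all peaks, and the C/EBP palindrome TTGCGCAA was in none of the 31 and in 0.459% of all peaks. The 31 peaks are wider than most, with a median of 1706 bases against 813, so more matches fall in them by length alone. Among all peaks whose width differed by at most 20%, the share with a DR1-like element of at most 2 mismatches was 65.6% for the leading Pck1 peak, 72.5% for that of Gpd1, 69.1% for that of Aqp7 and 89.2% for that of Pdk4. A DR1-like element is therefore the usual case in peaks as broad as these.

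The authors counted the reads of each library in every peak, and these counts were scaled by library total and TMM factor to the median library, which gives the normalized count used throughout. Counts are listed in 3-h steps, first those of the light phase and then those from ZT12, the onset of the dark phase. Between 29572225 and 34264812 reads per library fell in peaks. The lowest and highest normalized counts of the main peaks are given with Wilson 95% intervals, which cover counting error only. A lower count can reflect less PPARγ on each chromatin copy or fewer cells with bound PPARγ, and these cannot be told apart in whole tissue. With 1 library per time point, a difference in preparation, including immunoprecipitation, cannot be told apart from time either. Of the tissue markers, Ucp1, Cidea, Ppargc1a, Adipoq, Fabp4 and Plin1 each had at least 1 peak within 10 kb of a start site, whereas Alb, Ckm, Ptprc and Krt5 had 0. Among the reads that fell in peaks, the share in the strongest 10% of peaks was lowest at ZT15 (44.2%) and highest at ZT6 (48.0%). This share moves with the time course described next, and cyclic loess, which evens out strong against weak peaks, was run beside the main scaling. Its values are given where they end a call.

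Oscillation was assessed with JTK-cycle, using the exact null distribution, periods of 21 and 24 h and a correction over the period and phase combinations of a peak (adjusted P under 0.05). The JTK P values called exact throughout are those after this correction. In another test, a 24-h cosine was fitted with the quasi-likelihood F test of edgeR and adjusted over all 66066 peaks. All 31 peaks were tested and none was filtered out. PPARγ binding oscillated in 13 of the 31 peaks by JTK-cycle, or 41.9%, while 11.6% of all peaks did. The estimated peak (LAG) fell between 3 and 9 h in 11 of these 13. In the whole table, 3271 of the 7686 JTK calls had such a LAG, so 4.95% of all peaks were called with one. Among the 13 called peaks, the fitted period was 24 h at Pdk4 peak 4, Aqp7 peak 2 and Gpd1 peak 6. It was 21 h at the others, and LAGs fitted with different periods are not strictly comparable. By the edgeR cosine, 15 of the 31 peaks passed, or 48.4%, against 13.4% of all peaks. All 15 had their fitted maximum in the light phase. Of the 8842 peaks of the table that passed, 5009 did, so 7.58% of all peaks combined both. Both tests together called 12 of the 31 peaks and 6.71% of all peaks. With a further Benjamini-Hochberg correction over all peaks, 0 of the 13 JTK calls remained, as no peak of the table passed (smallest q = 0.0968, JTK-cycle, exact null).

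The highest of the 8 libraries was ZT6 at 18 of the 31 peaks (17.4% of all peaks), and the lowest was ZT15 or ZT18 at 21 (29.9% of all peaks). Most calls were at strong peaks. Of the 16 peaks that averaged at least 500 normalized counts, 12 were called by both tests, 12 were highest at ZT6 and 13 were lowest at ZT15 or ZT18. Among all 17394 peaks averaging at least 500, 16.2% were called by JTK-cycle, 20.3% by the cosine and 10.9% by both. In that set, 25.0% were highest at ZT6 and 42.9% were lowest at ZT15 or ZT18. The median ratio of highest to lowest library was 1.61 in the 16 peaks and 1.34 in the whole set. The set was not matched further for strength, and the strongest peak of each window lies at percentile 99.4 to 99.95 of all peaks. Of the 15 weaker peaks, 1 was called by JTK-cycle, 2 by the cosine and 0 by both, while 10%, 10.9% and 5.22% of all 48672 peaks averaging under 500 were, so the weaker peaks did not stand out by these counts. Their median ratio was 1.56 against 1.60 in all peaks under 500, where counting error is larger. After cyclic loess, 18 of the 31 peaks were highest at ZT6 (16.6% of all peaks), 12 were called by JTK-cycle (11% of all peaks) and 10 by the cosine (11.1% of all peaks).

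**Figure D1:**
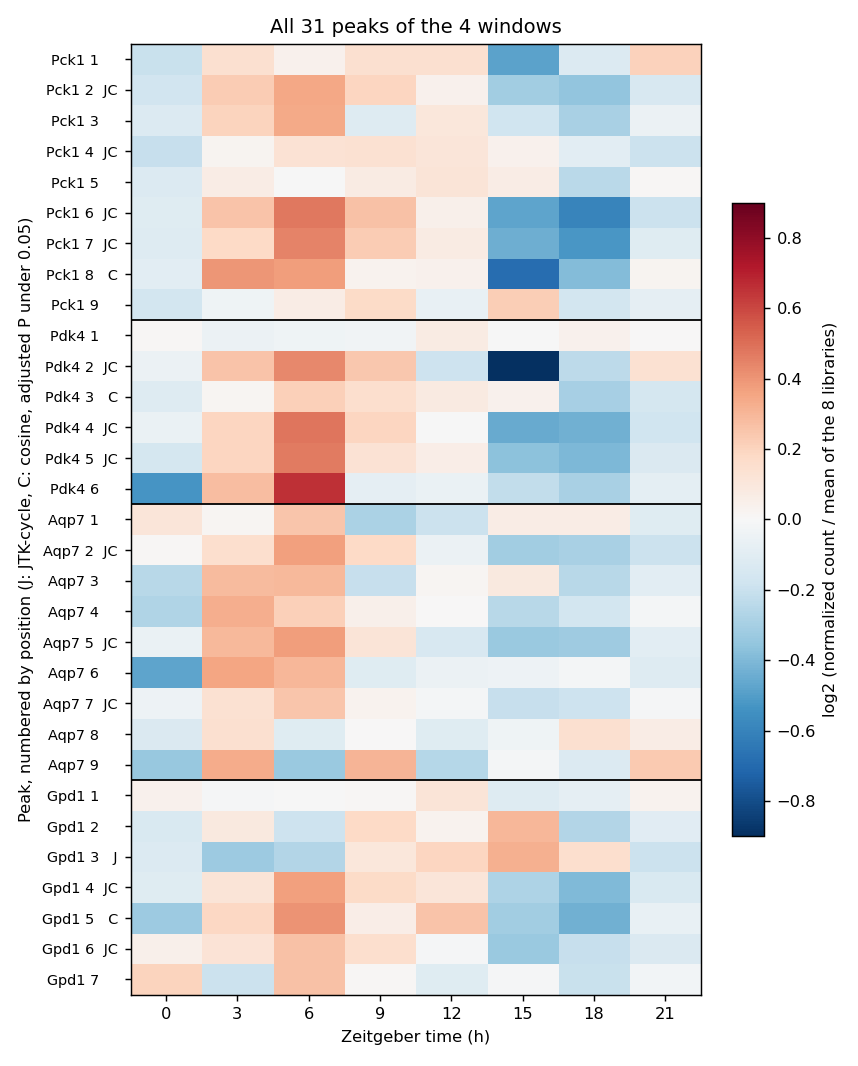
Normalized count of each of the 31 peaks (rows, numbered by position within its window) at the 8 time points (columns, Zeitgeber time in h), as log2 of the count over the mean of the 8 libraries. J and C mark peaks called by JTK-cycle and by the edgeR cosine. Most rows with both marks are red at ZT6 and blue at ZT15 and ZT18, and rows such as Pdk4 1 and Gpd1 1 stay pale throughout.

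At all 4 genes the strongest peak covered the start site. At Pck1 this was peak 6 (chr2:173150892-173156399), which covers the start site, the element 444 bases upstream and the first part of the gene. Its normalized count was 6129, 7889.97, 9218 and 7938 from ZT0 to ZT9 and 6830.3, 4756, 4394 and 5794 from ZT12 to ZT21. It thus rose through the first part of the light phase, was highest at midday and was lowest in the middle of the dark phase, with 9218 (95% counting interval 9035 to 9405) at ZT6 and 4394 (4263 to 4528) at ZT18, a ratio of 2.1. JTK-cycle gave an exact P of 0.00595, a LAG of 7.5 h and a relative amplitude of 31.1%, and the cosine gave an adjusted P of 0.000281 with its maximum at 5.91 h. Both calls were kept under all 14 alternative settings. Its mean of 6619 lies at percentile 99.8 of all peaks, and its density of 1202 normalized counts per kb was the highest in the window.

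Pck1 peak 7 (chr2:173156747-173162883) begins within the gene and runs past its 3′ end. Here the counts were 2591, 3187, 3844 and 3295 from ZT0 to ZT9 and 2958, 2075, 1959 and 2608 from ZT12 to ZT21. ZT6 was again highest and ZT18 lowest, as over the start site, with a ratio of 1.96, an exact JTK P of 0.000744, the smallest that 8 libraries gave anywhere in the table, and an adjusted cosine P of 0.00179. Further upstream lies peak 2 (chr2:173131327-173136085), centred 19367 bases from the Pck1 start site. It begins at the 3′ end of the noncoding gene Ctcflos and holds a DR1-like element with 1 mismatch. The nearest start site is that of Ctcflos for peaks 1 and 2 and of Gm36691 for peaks 3, 4 and 5. These peaks therefore cannot be assigned to Pck1 alone. Peak 2 had 2817, 3711, 4043 and 3629 from ZT0 to ZT9 and 3249, 2551, 2480.4 and 2870.1 from ZT12 to ZT21. This distal site was also highest at ZT6 and lowest at ZT18, with a ratio of 1.63 (exact JTK P = 0.00595, adjusted cosine P = 0.00188). Peak 4 (chr2:173137340-173140091), centred 14358 bases upstream, ran 1104, 1296, 1396 and 1403 from ZT0 to ZT9 and 1376, 1308, 1191 and 1114 from ZT12 to ZT21. Its counts stayed high from ZT6 to ZT15 and fell to the values of the onset of the light phase afterwards, a later and shallower course with a LAG of 10.5 h and a ratio of 1.27 (exact JTK P = 0.00595). The adjusted cosine P of peak 4 was 0.0439 and was lost in 10 of 14 settings, among them library totals, upper-quartile factors, cyclic loess and the removal of any library but ZT3, with a range of 0.0337 to 0.119 and 0.0843 under cyclic loess.

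The other 5 peaks of the Pck1 window were weak, with means of 104 to 187. Peak 8, 20492 bases downstream of the start site, had 119, 167, 165 and 129.99 from ZT0 to ZT9 and 131, 79.1, 97.3 and 129.8 from ZT12 to ZT21. It passed the cosine (adjusted P = 0.043) but not JTK-cycle (exact P = 0.212), and the cosine call was lost with library totals and without any one of ZT3, ZT6, ZT9, ZT15 or ZT18 (range 0.0342 to 0.189). The remaining 4 passed neither test. Peak 1 gave 89.9, 114, 106 and 114 from ZT0 to ZT9 and 114, 74.3, 95.2 and 119.5 from ZT12 to ZT21. Peak 3 gave 123, 153, 169 and 123 from ZT0 to ZT9 and 143, 118, 109 and 129 from ZT12 to ZT21. These flank peak 2, and only peak 3 was highest at ZT6. Peak 5, which holds a single-mismatch element, gave 108, 124, 118 and 124 from ZT0 to ZT9 and 128, 123, 99.4 and 119 from ZT12 to ZT21. Peak 9 gave 166, 182, 195 and 209.8 from ZT0 to ZT9 and 178, 218, 167 and 177 from ZT12 to ZT21. At both, the counting intervals of the highest and lowest library overlapped. An element with 1 mismatch was thus present in a strong oscillating peak and in a weak peak whose change over the day was within counting error.

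**Figure D2:**
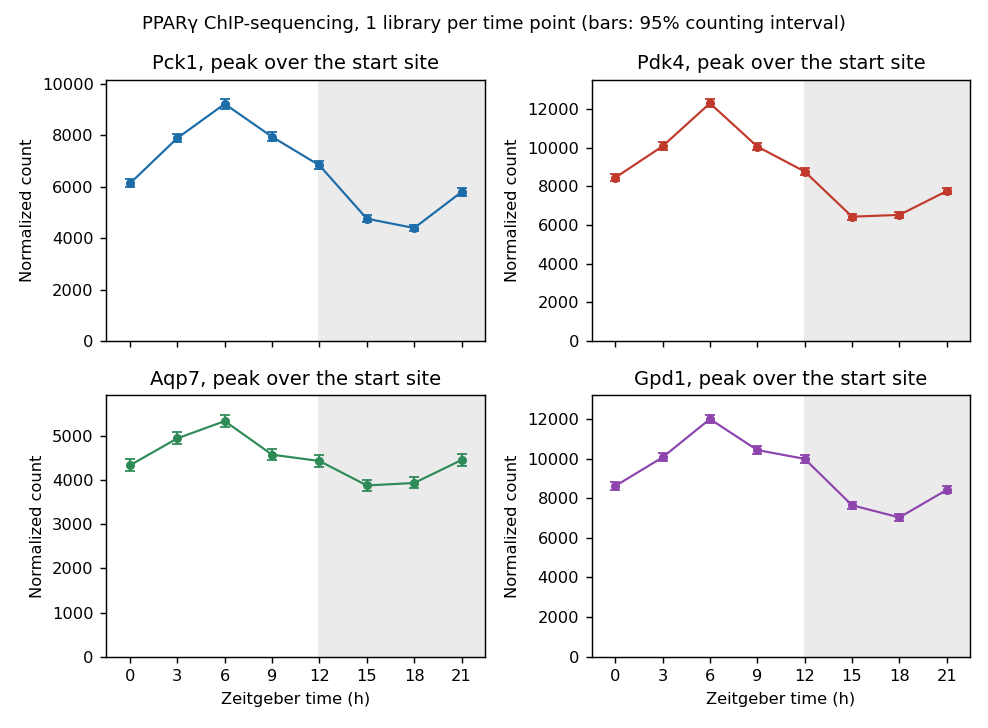
Normalized count (vertical axis, from 0) of the peak over the start site of Pck1, Pdk4, Aqp7 and Gpd1 by Zeitgeber time in h, with the dark phase shaded. Each point is 1 library and each bar its 95% counting interval. All 4 are highest at ZT6, with ratios of highest to lowest of 2.1, 1.91, 1.38 and 1.71.

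Pdk4 had the widest peak of the 4 windows, peak 4 (chr6:5487743-5499871), which reaches from upstream of the start site through most of the gene. Its normalized count was 8444, 10068, 12288 and 10052 from ZT0 to ZT9 and 8761, 6428, 6519 and 7751 from ZT12 to ZT21. ZT6 stood above the neighbouring libraries and ZT15 and ZT18 were nearly equal at the bottom, from 12288 (95% counting interval 12077 to 12504) at ZT6 to 6428 (6275 to 6584) at ZT15, a ratio of 1.91. The cosine gave an adjusted P of 0.000385 and its call was kept in all 14 settings. JTK-cycle gave an exact P of 0.026 with a LAG of 6 h, and this call was lost without ZT3, without ZT6 and without ZT9 (exact P = 0.161 for each, range over the settings 0.0139 to 0.161). Peak 5 (chr6:5506212-5511090), centred 12373 bases upstream and holding 3 DR1-like elements, was weaker in total but denser, with 1196 against 725 normalized counts per kb. It had 5220.1, 6665, 8064 and 6376 from ZT0 to ZT9 and 6086, 4523, 4412 and 5338 from ZT12 to ZT21. The upstream site followed the start site closely, with a ratio of 1.83, a LAG of 7.5 h, an exact JTK P of 0.00595 and an adjusted cosine P of 0.00213, and both calls were kept in all settings.

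Peaks 2 and 3 lie at the 3′ end of Pdk4. Peak 2 (chr6:5479392-5483714) had 1031, 1275, 1440.3 and 1262 from ZT0 to ZT9 and 938, 524, 906 and 1176 from ZT12 to ZT21. Its ratio of 2.75 was the largest of all 31 peaks, at percentile 97.6 of the table, and came from 1 low library, ZT15, beside the usual high at ZT6 (exact JTK P = 0.000744, LAG 6 h). The adjusted cosine P of 0.0295 was lost by DESeq2's likelihood ratio test and without ZT6, ZT12, ZT15 or ZT18 (range 0.0153 to 0.102). Peak 3 (chr6:5484024-5487589), in the last part of the gene, had 943, 1031, 1185 and 1129.5 from ZT0 to ZT9 and 1077, 1049, 828 and 912 from ZT12 to ZT21. This flatter course gave an exact JTK P of 0.0826 and an adjusted cosine P of 0.0403, and the latter was lost in 9 of 14 settings, among them library totals, cyclic loess and the removal of any library but ZT3 (range 0.0259 to 0.183, with 0.0850 under cyclic loess).

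The strong peak farthest downstream had a level course. Peak 1 (chr6:5469870-5473838), centred 24424 bases from the start site, had 2237, 2145, 2168 and 2172 from ZT0 to ZT9 and 2339, 2216, 2281 and 2230.5 from ZT12 to ZT21. Its ratio of 1.09 was the smallest of the 31 peaks, at percentile 0.136 of the table, and neither test called it (exact JTK P = 0.915, adjusted cosine P = 0.768). With library totals it passed JTK-cycle (exact P = 0.026) and likewise with cyclic loess (exact P = 0.000744), which placed its highest library at ZT18. Because the raw counts of peak 4 and peak 1 come from the same libraries, their quotient does not change with any scaling by 1 factor per library. It was 3.78, 4.69, 5.67 and 4.63 from ZT0 to ZT9 and 3.75, 2.90, 2.86 and 3.48 from ZT12 to ZT21. The Pdk4 peaks therefore changed unequally over the day, by 1.98-fold in this quotient under every such scaling and by 1.70-fold after cyclic loess, which adjusts strong and weak peaks differently. This pair was chosen after its values were seen. The weak peak 6, 21284 bases upstream, gave 116, 205, 266 and 159.5 from ZT0 to ZT9 and 161, 145, 138 and 158 from ZT12 to ZT21. It was high in a single library, ZT6, and passed neither test (exact JTK P = 0.212, adjusted cosine P = 0.115).

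**Figure D3:**
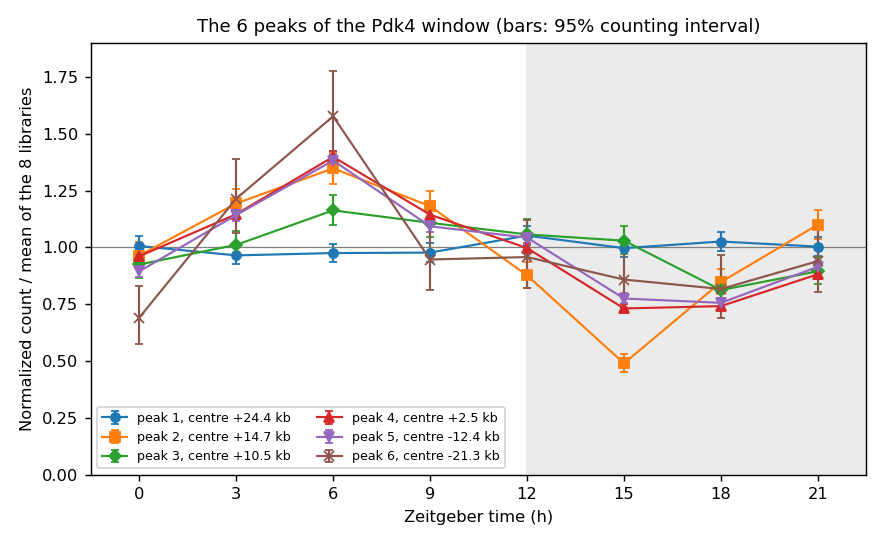
Normalized count of the 6 Pdk4 peaks over their own mean of the 8 libraries, by Zeitgeber time in h, with 95% counting intervals and the dark phase shaded; legend distances are from the start site, in kb. Peaks 4 and 5 run together from a maximum at ZT6 to a minimum at ZT15 and ZT18, peak 2 drops at ZT15 alone, and peak 1 stays near 1.

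At Aqp7 the leading peak, peak 7 (chr4:41043613-41049768), covers the start site with the element 50 bases upstream of it. It had 4337, 4946, 5336 and 4576 from ZT0 to ZT9 and 4432, 3879.5, 3935 and 4455 from ZT12 to ZT21. ZT6 was highest and ZT15 and ZT18 were lowest, as at Pck1 and Pdk4, but the range was smaller, from 5336 (95% counting interval 5197 to 5479) at ZT6 to 3879.5 (3761 to 4001) at ZT15, a ratio of 1.38 and a relative amplitude of 10.9%. JTK-cycle gave an exact P of 0.00595 with a LAG of 6 h, and the cosine an adjusted P of 0.0239. Cyclic loess ended both calls (exact JTK P = 0.0826, adjusted cosine P = 0.398) and reduced the ratio to 1.11. The JTK call was also lost with a period of 24 h only (range 0.00595 to 0.113), and the cosine call with library totals and without ZT6, ZT15 or ZT18 (range 0.0158 to 0.398). Aqp7 was the only one of the 4 genes at which cyclic loess ended both calls of the leading peak.

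Inside the gene, peak 5 (chr4:41039766-41042196) in intron 3 was denser than the leading peak, with 1094 against 729 normalized counts per kb. It had 2550.3, 3255, 3450.5 and 2886 from ZT0 to ZT9 and 2408, 2108, 2132 and 2487 from ZT12 to ZT21. This intronic site changed more than the start site, with a ratio of 1.64 and a relative amplitude of 22.6% (exact JTK P = 0.00595, adjusted cosine P = 0.00155), and both calls were kept in all 14 settings; the difference from the start site was not tested. Peak 2 (chr4:41030692-41032908), just beyond the 3′ end of the gene and with a single-mismatch element, had 692, 762, 887 and 779.9 from ZT0 to ZT9 and 663, 555, 561 and 601 from ZT12 to ZT21. It was highest at ZT6 with a ratio of 1.6 (exact JTK P = 0.026, adjusted cosine P = 0.00637), and the JTK call was lost without ZT6 and without ZT12 (range 0.0139 to 0.161). Peak 4, also in intron 3, had 812, 1227, 1133 and 1009 from ZT0 to ZT9 and 981, 821, 871 and 965 from ZT12 to ZT21. It was highest at ZT3 and lowest at ZT0 and passed neither test (exact JTK P = 0.467, adjusted cosine P = 0.095).

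The 5 weak Aqp7 peaks had means of 95.8 to 160.3 and none passed either test. Peaks 3 and 6 lie in intron 3. Peak 3 gave 135, 195, 196 and 139 from ZT0 to ZT9 and 162, 171, 135 and 150.2 from ZT12 to ZT21. Peak 6 gave 106, 188, 182 and 137 from ZT0 to ZT9 and 142, 143, 146 and 136 from ZT12 to ZT21. ZT3 and ZT6 were the highest pair of libraries at both. Outside the gene, peak 1 gave 103, 97.1, 114 and 78.8 from ZT0 to ZT9 and 83.7, 100.3, 100.4 and 88.9 from ZT12 to ZT21. Peak 8 gave 109, 132, 111 and 120.1 from ZT0 to ZT9 and 111, 117, 133 and 126 from ZT12 to ZT21. Their highest and lowest libraries did not separate beyond the counting intervals. Peak 9, 17272 bases upstream, gave 81.7, 130.4, 82.1 and 128 from ZT0 to ZT9 and 86.8, 102, 95.2 and 122 from ZT12 to ZT21, with low and high libraries alternating rather than following one another.

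The leading Gpd1 peak, peak 4 (chr15:99712761-99719541), covers the start site and the single-mismatch element, and its upstream end reaches into the neighbouring gene Smarcd1. With a mean of 9271 and 1367 normalized counts per kb it was the strongest of the 31 peaks on both scales. It had 8614, 10062, 11993 and 10427 from ZT0 to ZT9 and 9984, 7642, 7029 and 8419 from ZT12 to ZT21. The maximum was at ZT6, the decline was slower from ZT9 to ZT12 than from ZT6 to ZT9 or from ZT12 to ZT15, and the minimum was at ZT18, from 11993 (95% counting interval 11784 to 12205) at ZT6 to 7029 (6864 to 7198) at ZT18, a ratio of 1.71. JTK-cycle gave an exact P of 0.00595 with a LAG of 7.5 h, a call kept in all settings. The adjusted cosine P of 0.0017 was lost only under cyclic loess (adjusted P = 0.051, range 2.95e-06 to 0.051).

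Peak 6 (chr15:99721866-99726956) covers the 3′ end of Gpd1 and the start sites of Cox14, a cytochrome c oxidase assembly factor, and of the noncoding gene Gm16537, so it cannot be assigned to Gpd1 alone. It had 3887, 4109, 4528 and 4170.5 from ZT0 to ZT9 and 3738, 2981, 3256 and 3448 from ZT12 to ZT21. The ratio was 1.52, with ZT6 highest and ZT15 lowest (exact JTK P = 0.026, adjusted cosine P = 0.00518). Cyclic loess ended both calls (exact JTK P = 0.0826, adjusted cosine P = 0.0733), and the JTK call was also lost without ZT6 and without ZT12 (range 0.0139 to 0.161 for JTK-cycle and 0.000184 to 0.0733 for the cosine). Between both broad peaks, peak 5 in intron 4 had 376, 538, 625 and 490.4 from ZT0 to ZT9 and 565, 380.04, 349.9 and 449.6 from ZT12 to ZT21. It passed the cosine (adjusted P = 0.043) but not JTK-cycle (exact P = 0.212), and the cosine call was lost with library totals and without ZT6, ZT12, ZT15 or ZT18 (range 0.014 to 0.190).

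Upstream, the window holds the start of Smarcd1, a subunit of the SWI/SNF chromatin remodelling complex. Peak 1 (chr15:99702007-99702933) covers that start site and had 533, 516, 518 and 525 from ZT0 to ZT9 and 565, 480.4, 492 and 532 from ZT12 to ZT21. It stayed level, with overlapping counting intervals, a ratio of 1.18 and no call (exact JTK P = 1, adjusted cosine P = 0.915). The quotient of the raw counts of peak 4 over peak 1 was 16.2, 19.5, 23.2 and 19.9 from ZT0 to ZT9 and 17.7, 15.9, 14.3 and 15.8 from ZT12 to ZT21. Binding at the Gpd1 start site thus changed against that at the Smarcd1 start site by 1.62-fold under any scaling by 1 factor per library, but by 1.19-fold after cyclic loess. This pair, too, was chosen after its values were seen. Within Smarcd1, peak 3 was the only one of the 31 peaks called with a LAG in the dark phase. It had 139, 121, 127 and 162 from ZT0 to ZT9 and 174, 189, 169 and 133 from ZT12 to ZT21. This weak peak was highest at ZT15, where 9 other peaks were at their lowest, with an exact JTK P of 0.000744, a LAG of 15 h and an adjusted cosine P of 0.0631. Peak 2, next to it, had 399, 466, 386 and 498 from ZT0 to ZT9 and 448, 542, 366 and 409.7 from ZT12 to ZT21. It was likewise highest at ZT15 but passed neither test (exact JTK P = 1, adjusted cosine P = 0.449). Peak 7, 15817 bases downstream, gave 134, 102, 140.1 and 117 from ZT0 to ZT9 and 108, 116, 101 and 114 from ZT12 to ZT21, within counting error.

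**Figure D4:**
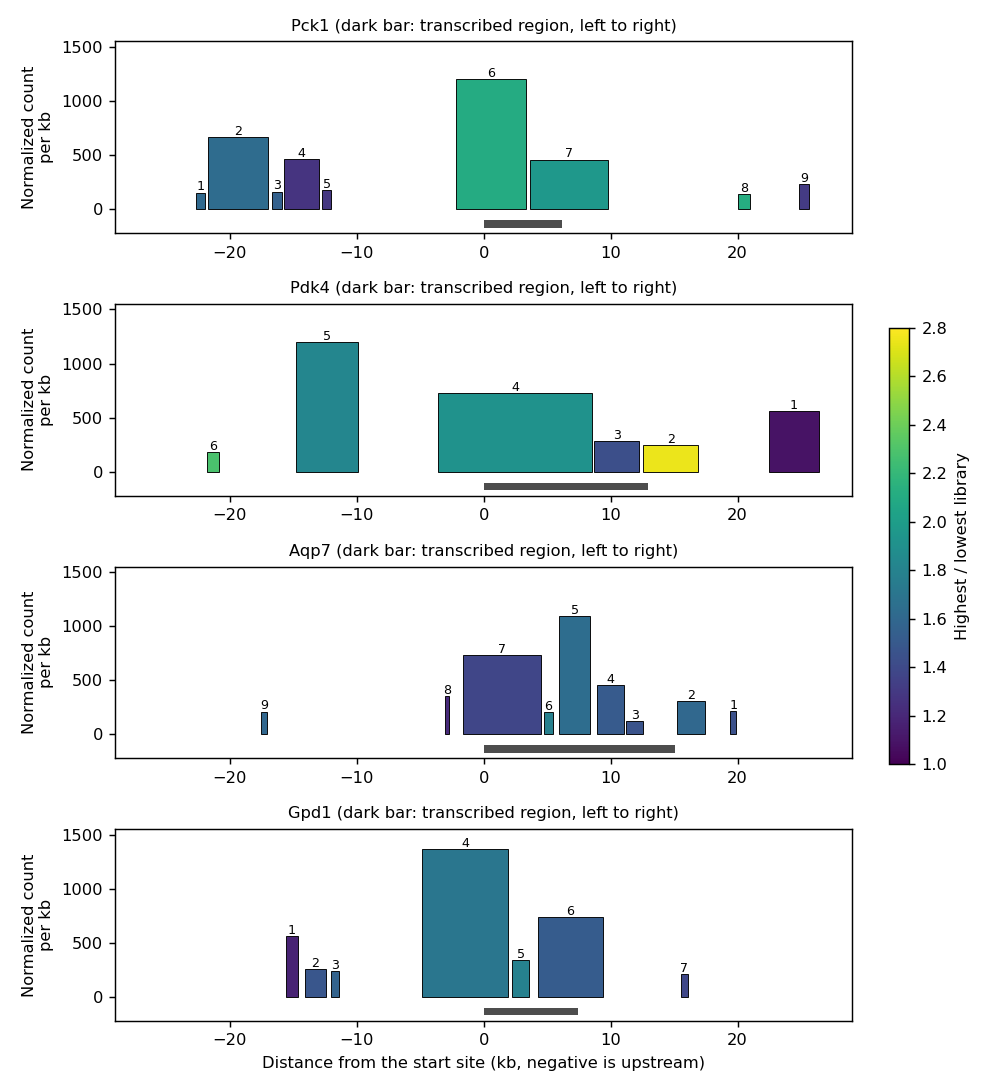
Position of the 31 peaks in kb from the start site of each gene (negative is upstream, all genes drawn left to right, so that numbers run backwards at Pdk4 and Aqp7), with mean normalized count per kb as height and the ratio of highest to lowest library as colour. The peaks over the start sites are the largest in area in each window, and the densest peak is at the start site of Pck1 and Gpd1, upstream at Pdk4 (peak 5) and in intron 3 at Aqp7 (peak 5).

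Summed over each window, normalized counts were highest at ZT6 at all 4 genes. The lowest sum was at ZT18 for Pck1 (10591 against 19254 at ZT6, a ratio of 1.82) and Gpd1 (11764 against 18316, 1.56), and at ZT15 for Pdk4 (14884 against 25411, 1.71) and Aqp7 (7995 against 11491, 1.44). The leading peak held 45.5% of the window's counts at Pck1, 46.0% at Pdk4, 47.5% at Aqp7 and 62.9% at Gpd1. Ordered by ratio, the leading peaks ran from Pck1 (2.1) and Pdk4 (1.91) to Gpd1 (1.71) and Aqp7 (1.38), and under cyclic loess the order was the same (1.61, 1.44, 1.26 and 1.11). With 1 library per time point, differences between neighbours in this order were not tested.

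The 4 leading peaks had similar time courses, with Pearson correlations of log2 normalized counts of 0.917 (Aqp7 and Gpd1) to 0.988 (Pck1 and Pdk4) over the 8 libraries, which they share. Between pairs of peaks with a mean of at least 500, the median correlation was 0.766 within a window (25 pairs) and 0.785 between windows (95 pairs). The median over all peaks of that strength is not given here. Each leading peak correlated more closely with the outside peaks named below than with any other leading peak, so the likeness is not particular to these genes. The 17378 peaks of that strength outside the windows were ranked by the same correlation, and each is named by its nearest start site, whatever the distance. The time courses most like the leading Pck1 peak were those of peaks 344 bases from Akt2 (r = 0.997), a kinase of insulin signalling, 54614 bases from Snrk (0.995) and 9160 bases from Gm10782 (0.995). For the leading Pdk4 peak all 3 lay far from a start site, at 118828 bases from Mir5624, 34650 from Hoxc4 and 36498 from 1700112H15Rik (0.994 to 0.996). For Aqp7 the distances were 700.5 bases to Adh6-ps1, 29484.5 to 5430403N17Rik and 42091 to Lncbate10 (0.991 to 0.995). For Gpd1 they were 51145.5 bases to Tmem170b, 37198.5 to Lncbate10 and 7988.5 to Gm15441 (0.995 to 0.997).

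A list of 27 further genes of pyruvate, malate and glycerol metabolism was examined for comparison, and 26 of them were the nearest start site of 133 peaks. Of these 133 peaks, 12 oscillated by JTK-cycle (9.02%) and 12 by the edgeR cosine (9.02%), below the shares of all peaks given above. The LAG was in the light phase in 10 of the 12 JTK calls and in the dark phase in 2, and the fitted maximum of the cosine in 9 and 3. The median ratio of the 133 peaks was 1.44. Within 10 kb of the start site, 5 of 62 peaks passed JTK-cycle and 4 the cosine. Neither test called the 1 peak near Pck2, the mitochondrial counterpart of Pck1, or any near Gpd1l (4 peaks) or the aquaglyceroporin Aqp3 (3 peaks). The same held for the kinases Pdk1 (7 peaks) and Pdk3 (3 peaks), and with so few peaks these absences say little. Of the 2 peaks near the kinase Pdk2, JTK-cycle called the one centred 635 bases from the start site (exact P = 0.00595, highest at ZT6). The cosine called the other (adjusted P = 0.0267, highest at ZT3).

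Both tests called 6 of the 133 peaks of the list, at Gk, Gpd2 and Pdp1, while 6.71% of all peaks were. Within 10 kb of a start site they called 1 of 62, so the list did not stand out by this count. Gk encodes glycerol kinase, which phosphorylates the glycerol that Aqp7 would otherwise release. The peak over its start site (chrX:85775706-85777820) had 859.97, 1014, 1150.5 and 1003 from ZT0 to ZT9 and 896, 677, 783 and 943 from ZT12 to ZT21. A second Gk peak, farther than 10 kb upstream (chrX:85796656-85798540), had 685, 883, 947 and 809 from ZT0 to ZT9 and 706, 529, 645 and 771 from ZT12 to ZT21. At both, ZT6 was highest and ZT15 lowest, with ratios of 1.7 and 1.79, exact JTK P values of 0.00595 and adjusted cosine P values of 0.035 and 0.0289. Gpd2 encodes the mitochondrial glycerol-3-phosphate dehydrogenase, the partner of Gpd1 in the glycerol phosphate shuttle. Its strongest called peak (chr2:57250141-57257240) had 5397, 6226, 6799.5 and 6253 from ZT0 to ZT9 and 6415, 5822, 5043 and 5547 from ZT12 to ZT21. The ratio of 1.35 was below that of the Gpd1 start site, with a LAG of 9 h (exact JTK P = 0.026, adjusted cosine P = 0.0277). A peak 215800 bases from the Gpd2 start site (chr2:57453804-57454559) went from 670.4 at ZT15 to 1373 at ZT6, while a weak one at 81847 bases (chr2:57319977-57320481) went from 28.6 at ZT0 to 75.6 at ZT12, with LAGs of 6 and 13.5 h. Pdp1 encodes a phosphatase that reactivates pyruvate dehydrogenase and so opposes Pdk4. Its called peak (chr4:11917823-11918264) was weak and distant, at 47669.5 bases, and had 59.2, 82.8, 90.8 and 68.9 from ZT0 to ZT9 and 56.2, 56.9, 37.3 and 60.3 from ZT12 to ZT21. It was highest at ZT6, as were 17.4% of all peaks (exact JTK P = 0.026, adjusted cosine P = 0.0458). Another Pdp1 peak at 69142 bases (chr4:11895790-11897352), called by JTK-cycle only (exact P = 0.026), was highest at ZT3 and lowest at ZT12. The peak over the Pdp1 start site (chr4:11965840-11966867) was called by neither test.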

How the data were processed

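PPARγ ChIP-sequencing of pooled iBAT was analysed at 8 time points with 1 library each, matched to time points by their labels. The authors aligned reads to mm10 with BWA 0.7.17, called peaks per library with MACS2 2.1.2, retained those significant at 0.05 (false discovery rate) in 6 or more libraries and obtained counts with HTSeq 1.99.2, as given in the methods and the submitters' processing notes. The deposited values are raw counts per peak, not normalized by the authors. Handling of duplicate reads is not given in the sources used here. The table holds 8 sample columns, all of which were used.

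Library factors (TMM) and the 24-h cosine (glmQLFit and glmQLFTest, cosine and sine tested together, 5 residual degrees of freedom, Benjamini-Hochberg over 66066 peaks) were calculated with edgeR 4.0.16 in R 4.3.3. Without replicates, the residuals around the cosine are its only measure of spread. JTK-cycle was reimplemented in Python 3.11.15 because MetaCycle was not installed. P values of each peak were multiplied by 15, the number of period and phase templates, and the LAG has steps of 1.5 h. Both procedures were run on simulated counts with 24-h cosines and a fixed dispersion, and the outcome is not reported here. Relative amplitude is the amplitude as a percent of the Hodges-Lehmann median of the 8 values. The nearest start site of each peak was found among 45756 curated RefSeq transcripts (GRCm38.p6, the assembly of mm10), and sequences were read from the same assembly. Wilson intervals at 95% relate a count to its library total.

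The windows, the gene lists and the tests were chosen with earlier results of these data known. In each window the peak with the highest mean normalized count was the leading peak. For each, the 3 most correlated peaks averaging at least 500 were named, and of the 27 pathway genes those with a peak called by both tests. Alternatives used limma 3.58.1 (cyclic loess) and DESeq2 1.42.0.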

Additional observations from a re-analysis of the deposited data

How the results depend on the processing

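Of the 31 peaks, 30 were tested again under 14 alternative settings for each test and Aqp7 peak 1, whose mean raw count was under 100, under 13, namely other scalings, a period of 24 h only (JTK-cycle), DESeq2's likelihood ratio test (cosine), a mean raw count of at least 100 and the removal of each library. The number of peaks called by JTK-cycle was 13 in the main setting and 11 to 15 with 1 library left out, lowest without ZT6 and highest without ZT0. With library totals it was 14, with cyclic loess 12, and at a threshold of 0.01 it was 10. The number called by the edgeR cosine was 15 in the main setting. It ranged from 9 without ZT6, ZT15 or ZT18 to 14 with 1 library left out, and was 11 with library totals, 10 with cyclic loess, 14 by DESeq2 and 9 at a threshold of 0.01. Of all peaks, cyclic loess called 11% by JTK-cycle and 11.1% by the cosine, and the shares for the other settings are not given here. Whether the changes were particular to the 31 peaks was therefore not tested, nor was their cause. With 1 library left out, the adjusted JTK P moves in coarse steps, for example from 0.0417 to 0.161. Over single peaks and settings, 10 JTK calls were lost and 11 gained, 42 cosine calls were lost and 2 gained, and no called peak moved its phase by more than 6 h. Requiring at most 1 mismatch reduced the peaks with a DR1-like element from 16 to 4, and limiting the list of pathway genes to 10 kb reduced its JTK calls from 12 to 5.

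No paired analysis was possible because each time point has 1 library. Counting error limits the 15 weak peaks most, and no P value here measures the spread between animals, since JTK-cycle uses the ranks of the 8 libraries over time and the cosine their residuals around the fitted curve.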
